A study of Mus musculus with 9 samples.

Results

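The mitochondrially encoded genes of the mouse are the 37 genes carried by the small circular genome inside mitochondria, recognised here by gene symbols that begin with mt-. They make up 37 of the 54281 genes in the quantification. By class they are 13 protein-coding genes, 2 ribosomal RNA genes and 22 transfer RNA genes. RNA was sequenced from Comma-1D, a mouse mammary epithelial cell line, after sorting by the surface proteins Sca-1 and EpCAM into 3 populations. Cells high for Sca-1 and low for EpCAM are called B, cells low for Sca-1 and high for EpCAM are called L, and cells high for both are called bi. Each population came as a control, transduced with an activated MYC oncogene, or transduced with an activated Her2 oncogene, the receptor tyrosine kinase encoded by Erbb2. This gives 9 libraries, 1 for each population and arm, all from 1 cell line. The labels do not state a vector for the controls, the species of the transgenes, or whether the libraries came from separate cultures, so the spread between libraries may be technical.

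Mitochondrial DNA is transcribed into long RNAs that cover nearly a whole strand. Transfer RNAs lie between most of the other genes and are cut out of these RNAs, which frees the messenger and ribosomal RNAs. The protein-coding genes specify core subunits of the respiratory chain complexes I, III and IV and of the ATP synthase. All other proteins of the organelle, those that copy, transcribe and translate its genome included, are encoded in the nucleus. In mouse, as in other animals, fragments of the mitochondrial genome have also been inserted into nuclear chromosomes, where they are annotated as pseudogenes.

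Such nuclear copies held most of the reads of 4 of the protein-coding genes in nearly every library and a small part of those of mt-Co1, which bears on the values of those genes below. In the GENCODE M21 transcripts of the mouse build GRCm38 (mm10), 11 annotated pseudogenes matched 9 mitochondrial genes at 95% identity or more over at least 80% of the pseudogene. Of these, 7 lie on the minus strand of chromosome 1 between positions 24611535 and 24616197. Gm28661 matched mt-Co2 at 100% over 681 bases, Gm28437 matched mt-Co3 at 100% over 783 bases, and Gm10925 matched mt-Atp6 at 100% over 678 bases. The aligned part of Gm28438 differed from mt-Nd3 at 1 of 345 bases (T3C), and that of Gm29216 differed from mt-Co1 at 1 of 483 bases (A1066T). In these tokens the mitochondrial base comes first and the position counts from the first base of the mitochondrial gene. The sequences below show how little there is to tell gene from copy. The first 60 bases of mt-Co2 (chrM:7013-7072, plus strand) are the same in Gm28661, and the other lines set each gene beside its copy with the differing base in capitals (bases 1 to 23 of mt-Nd3 and 1063 to 1086 of mt-Co1).
mt-Co2 and Gm28661: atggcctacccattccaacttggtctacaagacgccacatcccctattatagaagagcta
mt-Nd3: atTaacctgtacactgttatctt
Gm28438: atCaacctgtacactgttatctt
mt-Co1: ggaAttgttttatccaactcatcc
Gm29216: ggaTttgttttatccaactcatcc
The last 60 bases of mt-Atp8 (chrM:7910-7969, plus strand) are shown for a second reason. Their final 43 bases, in capitals, are also the first 43 bases of mt-Atp6, so reads there fit both genes.
End of mt-Atp8: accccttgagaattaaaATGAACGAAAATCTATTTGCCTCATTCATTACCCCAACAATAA

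The share of reads left under the mitochondrial identifier differed between genes and between libraries. For mt-Co2, which encodes a core subunit of cytochrome c oxidase (complex IV), 4.97% to 16.3% of the joint reads of gene and copy were listed under the gene. For mt-Co3, another core subunit of complex IV, the share was 13.6% to 37.7%. For mt-Atp6, a subunit of the proton channel of the ATP synthase, it was 25.8% to 63.9%. For mt-Nd3, a complex I subunit, it was 22.1% to 39.7%. These 4 genes thus had most of their reads under a pseudogene, except mt-Atp6 in the bi Her2 library. For mt-Co1, the catalytic subunit of complex IV, the share was 94.3% to 97.8%, and its copy matches only the last 483 bases of that gene. The 5 copies held 20.5% to 32.1% of the reads of the 13 protein-coding genes and copies together. The other 6 copies held few reads or none: Gm28439 (mt-Nd4), Gm10222 (mt-Nd4l) and Gm13339 (mt-Nd2) had 0 reads, and Gm13340, on chromosome 2, averaged 0.231 counts per 1000000 reads (CPM). Whether the reads under the 5 copies came from mitochondrial or nuclear DNA cannot be told apart from counts per gene. All results are therefore given as deposited and, where it matters, with the reads of each copy added to its gene.

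**Figure D1:**
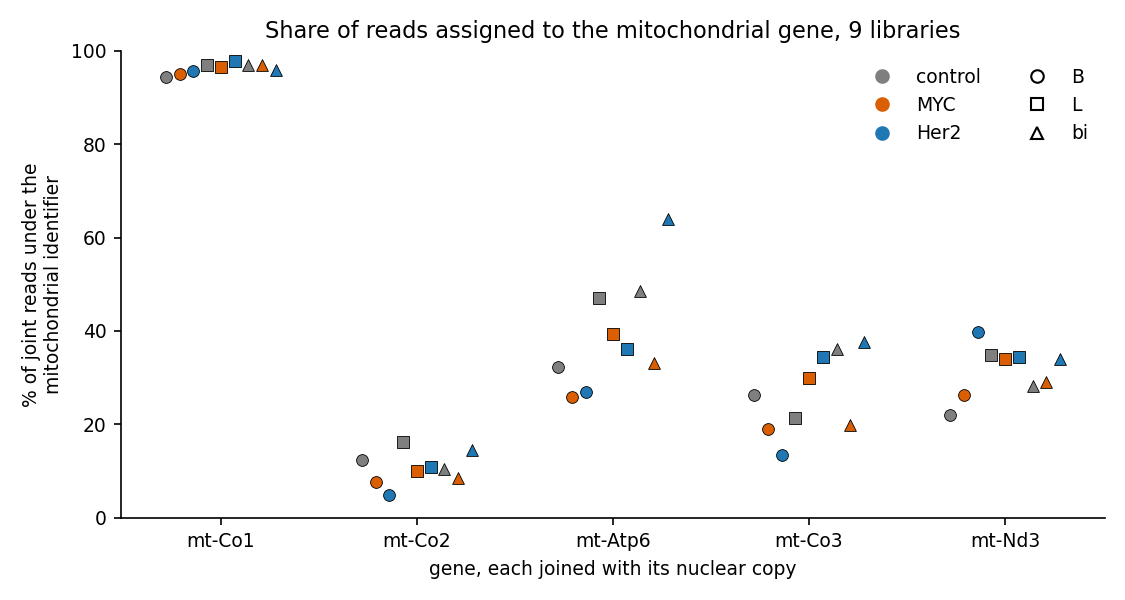
Share of the joint reads of gene and nuclear copy (percent) listed under the mitochondrial gene, for 5 genes, with 1 point for each of the 9 libraries, colour for arm and symbol for population. mt-Co1 stays at 94.3% or more, while the highest value of mt-Co2 is 16.3% and mt-Atp6 ranges from 25.8% to 63.9%.

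The libraries held 46.9 to 98.9 M reads (M, 1000000), of which annotated ribosomal RNA loci took 9.70% to 16.1%. In each population Myc peaked in the library labelled MYC, and Erbb2 in that labelled Her2. Ly6a, which encodes Sca-1, was lowest in L in every arm, and Epcam was at 0.171 to 0.796 CPM in B against 240 to 550 CPM in L and bi. Markers of mammary epithelium summed to 1960 to 4096 CPM in B, 3470 to 5193 in L and 4925 to 6904 in bi. Fibroblast markers summed to 86.3 to 139 CPM in B, 17 to 22.2 in L and 25.6 to 36.9 in bi. Immune markers summed to 3.29 to 9.11 CPM, endothelial markers to 2.31 to 6.05 CPM and adipocyte markers to 0.750 to 4.93 CPM. Under 1 CPM in every library were 5 of 7 immune, 4 of 6 endothelial and 4 of 5 adipocyte markers. The part of these in the population results below was not tested. In bulk RNA, fewer cells of a kind and less RNA per cell cannot be told apart, and a share of reads is not an amount per cell.

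The 13 protein-coding genes gave between 5309 and 9289 CPM as deposited, less than 1% of all reads. In B the sum was 9164 CPM in the control, 9289 with MYC and 6322 with Her2. In L it was 7313, 8262 and 5309 CPM, and in bi 8856, 9252 and 8431 CPM, in the same order. The Her2 library was lowest and the MYC library highest in every population, with a small gap between Her2 and control in bi. With the copies added the sums were 12618, 13242 and 9306 CPM in B, 9738, 11047 and 6900 in L, and 11365, 12666 and 10600 in bi, or 0.690% to 1.32% of all reads, and this order was the same.

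**Figure D2:**
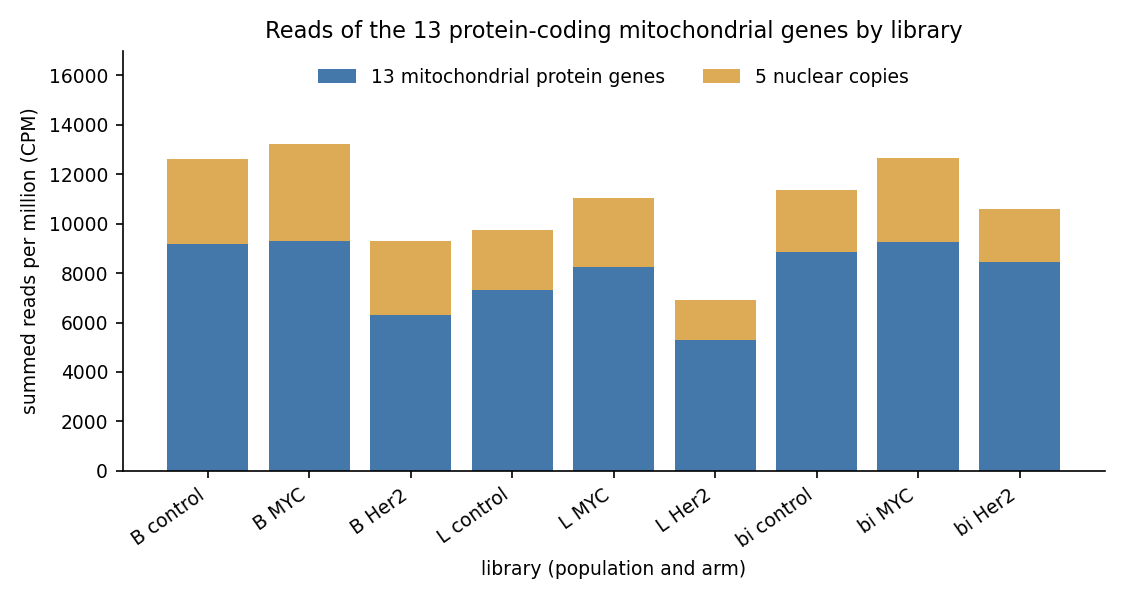
Summed CPM of the 13 mitochondrial protein-coding genes (lower bars) and of their 5 nuclear copies (upper bars) in each of the 9 libraries. The joint sum runs from 6900 CPM in the L Her2 library to 13242 CPM in the B MYC library.

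Adding the copies changed the order of the genes by level per length. Each value here is a mean level over the 9 libraries in CPM per kilobase of full gene length. The deposited median effective lengths fell further below full length in short genes. They were 60 of 204 bases for mt-Atp8, 125 of 297 for mt-Nd4l and 167 of 348 for mt-Nd3, against 1183 of 1378 for mt-Nd4. The places of these 3 short genes in the order therefore depend on the length used. As deposited, mt-Co1 led at 2236, followed by the complex I subunit mt-Nd1 at 958 and mt-Cytb, which encodes cytochrome b of complex III, at 910. With copies added, mt-Co1 stood at 2326 and was followed by mt-Co2 at 1635 (172 as deposited), mt-Co3 at 1603 (406) and mt-Atp6 at 1533 (588). In these means the 3 genes of complex IV and mt-Atp6 then stood above all 7 complex I genes. Of those, mt-Nd1 led, with mt-Nd4l at 471, mt-Nd4 at 441, mt-Nd3 at 365 (115 as deposited), mt-Nd5 at 340, mt-Nd2 at 241 and mt-Nd6 at 135. mt-Nd6 is the single protein-coding gene annotated on the minus strand. mt-Atp8, the other ATP synthase gene of the organelle, was at 225, below its neighbour mt-Atp6. Neighbours in this order such as mt-Co2, mt-Co3 and mt-Atp6, or mt-Nd4l and mt-Nd4, overlapped in their ranges over the 9 libraries.

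**Figure D3:**
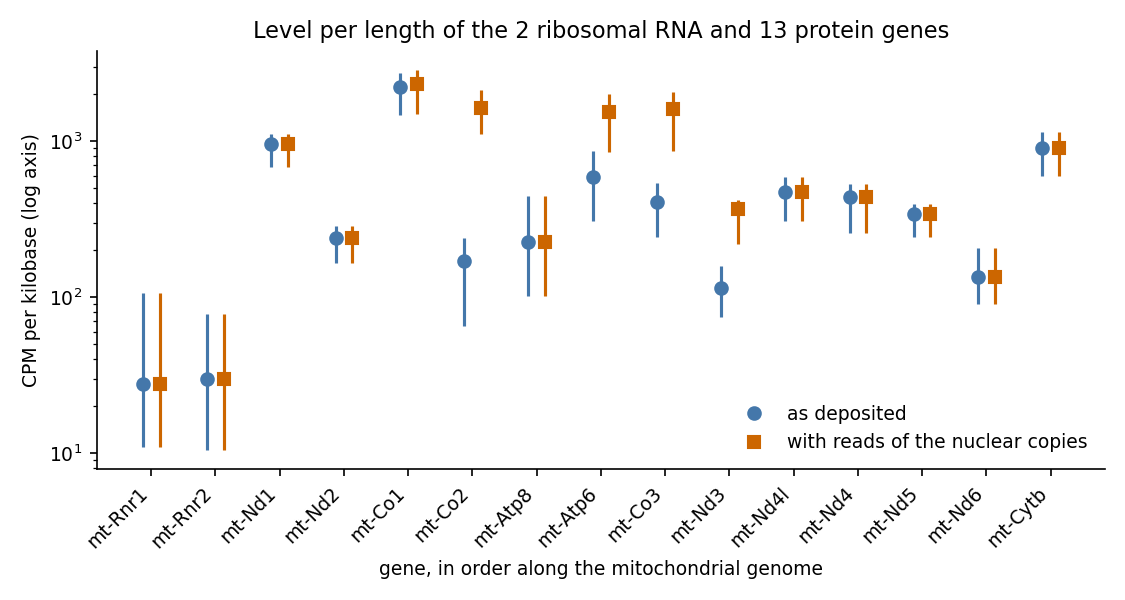
Level per full gene length (CPM per kilobase, log axis) of the ribosomal RNA and protein-coding genes in their order along the mitochondrial genome, as deposited (circles) and with reads of nuclear copies added (squares). Markers are means over 9 libraries and lines run from the lowest to the highest library. The largest upward shift is that of mt-Co2, from 172 to 1635.

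The ribosomal RNAs were the lowest of these 15 genes per length, at 27.8 CPM per kilobase for mt-Rnr1 (the small subunit RNA) and 29.6 for mt-Rnr2 (the large subunit RNA). Libraries were made after ribosomal RNA depletion, per the labels, so these are levels in depleted libraries and not in cells. mt-Rnr1 was at 30.3, 18.2 and 10.9 CPM in B control, MYC and Her2, at 18.0, 17.3 and 10.4 in L, and at 16.6, 15.8 and 101 in bi. mt-Rnr2 was at 73.8, 42.3 and 25.7 CPM in B, at 34.3, 40.6 and 16.5 in L, and at 32.1, 33.1 and 124 in bi. The bi Her2 library stood apart from the other 8 in both genes, and its share of nuclear ribosomal RNA loci was also the highest, at 16.1% of reads against 9.70% to 14.7%. The part of depletion in this was not tested. Her2 against control went down in B and L and up in bi: the log2 ratios of the summed ribosomal RNA were -1.51, -0.96 and 2.21. No comparison of all 9 libraries called either gene in edgeR's quasi-likelihood test. Without the bi Her2 library, mt-Rnr2 in Her2 against control went from -0.07 (SE 0.57) to -1.14 (SE 0.23, adjusted p = 0.0868) and mt-Rnr1 from 0.33 (SE 0.68) to -0.96 (SE 0.24, adjusted p = 0.152). Without it mt-Rnr2 also passed the threshold in L against B, from -0.67 (SE 0.53, adjusted p = 0.439) to -0.64 (SE 0.19, adjusted p = 0.0436). This was the only one of 21 alternatives that called it, and leaving out single libraries gave -1.09 (without B Her2) to -0.13 (without B control). The difference of bi against L went from 1.05 to -0.05 for mt-Rnr2 and from 1.30 to -0.04 for mt-Rnr1.

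Reads of transfer RNAs were scarce, and a few of these genes held most of them. The genes are 59 to 75 bases long, and how far such short RNAs entered the libraries was not tested. The values are thus levels in libraries and not in cells. The 22 genes summed to 21.7 to 42.3 CPM, and mt-Ts1 and mt-Tp together made up 69.9% to 87.7% of that. mt-Ts1, a transfer RNA for serine, and mt-Tp, that for proline, both lie on the minus strand, opposite to most of the genome's genes. Their sequences are given because they dominate this class. They read 5′ to 3′ on the minus strand of chrM:6870-6938 and chrM:15356-15422, and capitals mark the 3 bases of mt-Ts1 that overlap the end of mt-Co1 on the other strand.
mt-Ts1: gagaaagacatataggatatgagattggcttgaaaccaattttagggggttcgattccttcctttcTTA
mt-Tp: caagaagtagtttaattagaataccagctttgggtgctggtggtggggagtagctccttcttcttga
mt-Ts1 was at 19.0, 28.5 and 17.3 CPM in B control, MYC and Her2, at 13.1, 17.7 and 14.1 in L, and at 19.1, 22.2 and 11.1 in bi. mt-Tp was at 6.05, 8.63 and 5.63 CPM in B, at 4.59, 6.13 and 3.19 in L, and at 5.35, 8.20 and 5.54 in bi. The MYC library was the highest of its population for both genes.

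The other 20 transfer RNA genes averaged 0.0102 to 1.14 CPM each over the 9 libraries. The next 3 in level were mt-Ta (alanine) at 0.463 to 1.67 CPM, mt-Tc (cysteine) at 0.516 to 1.33 CPM and mt-Tw (tryptophan) at 0.382 to 1.13 CPM. Of the 8 transfer RNA genes on the minus strand, 7 passed the filter on low counts, against 4 of 14 on the plus strand. Their median mean level was 0.847 CPM on the minus strand and 0.0512 CPM on the plus strand, and 8 plus-strand genes had a library at 0. In the deposited files mt-Ts1 has a length of 69 bases and a median effective length of 13.3 bases, so levels per length of these genes are uncertain. Whether counting used the strand is not given in the sources used here, and without it reads of a minus-strand transfer RNA and of a long RNA from the plus strand cannot be told apart.

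The oncogene arms were compared as the average over the 3 populations, 3 libraries against 3, in edgeR's quasi-likelihood test with population as a block. The spread then comes from how far the populations disagree, with 4 residual degrees of freedom. Of the 37 genes, 26 passed the filter and were tested among 23834 genes: all 13 protein-coding genes, both ribosomal RNA genes and 11 transfer RNA genes. Fold changes are on the log2 scale with a standard error (SE), and genes with an adjusted p (Benjamini-Hochberg) below 0.05 were called. The 3 arm comparisons share libraries with each other and are not independent. The mitochondrial genes are not independent of each other either, since they are cut from shared long RNAs and read in the same libraries. Counts of these genes with the same sign, or with groups that do not overlap, are therefore descriptive in every comparison below.

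Her2 libraries had lower levels than controls for nearly all protein-coding genes, but no gene passed the threshold. Of the 26 tested, 0 were called (0.021% of all tested genes were). An unadjusted p under 0.05 was found for 9 of them and for 2097 of all 23834 genes tested. DESeq2 called 0 of the 26 and 509 of all genes. On log2(TPM + 1) limma called 0 of all genes, so its 0 here says nothing about the 26. The fold change was negative for 12 of the 13 protein-coding genes as deposited, with a median of -0.46, and for 13 of 13 with copies added, with a median of -0.36. The median of all genes tested was -0.01. The summed reads had a mean log2 ratio of -0.36 (SD 0.25 over 3 populations), from -0.54 in B and -0.46 in L to -0.07 in bi.

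mt-Nd1 was at 1071, 1017 and 1064 CPM in controls (B, L, then bi) and at 710, 656 and 934 with Her2, a fold change of -0.46 (SE 0.18, adjusted p = 0.484). mt-Nd2, also of complex I, was at 299, 285 and 282 CPM in the controls and 195, 171 and 238 with Her2, a fold change of -0.52 (SE 0.16, adjusted p = 0.294). In both genes all Her2 libraries lay below all control libraries, with the bi Her2 library nearest to the controls. All Her2 libraries also lay below all controls for mt-Cytb and mt-Nd4l, though for mt-Nd4l the B Her2 library was the highest of them, at 121 CPM. This makes 4 of 13 protein-coding genes, where 3.4% of all genes tested had groups that did not overlap in this direction. mt-Atp8 had the smallest adjusted p, with a fold change of -0.72 (SE 0.21, adjusted p = 0.280), and its groups overlapped. Without the B control library it was -0.45. mt-Nd3 was positive as deposited at 0.15 and negative with its copy added at -0.23, neither of them called. mt-Ta (0.753 against 1.49 CPM, a fold change of -1.01, SE 0.32, adjusted p = 0.315) and mt-Tc (-0.68, SE 0.29, adjusted p = 0.534) also lay below all controls in the Her2 libraries without being called. All 11 tested transfer RNA genes had a negative fold change, with a median of -0.76. In MYC against control 9 of the 11 were negative too, with a median of -0.30.

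MYC libraries differed little from controls. Of the 26 genes, 0 were called (0.365% of all tested genes were), and 1 had an unadjusted p under 0.05, as had 3317 of all 23834 genes tested. DESeq2 and limma called 0 of the 26, and 966 and 519 of all genes. The protein-coding genes had a median fold change of 0.03, equal to that of all genes tested, with 7 positive and 6 negative, while on log2(TPM + 1) 11 of the 13 were negative. The summed reads had a mean log2 ratio of 0.09 (SD 0.08), with 0.02 in B, 0.18 in L and 0.06 in bi. Without a library of L it was 0.04, and summed as deposited TPM it was -0.16, so the direction turned with the unit. The gene with the unadjusted p under 0.05 was mt-Tp, at 7.65 CPM with MYC and 5.33 in controls (0.51, SE 0.22, adjusted p = 0.324). Of the 11 tested transfer RNA genes, 2 (mt-Tp and mt-Ts1) had a positive fold change and 9 a negative one, with a median of -0.30.

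Within this narrow range the genes did not all go the same way. mt-Nd1 and mt-Nd2 were lower in all 3 MYC libraries than in all controls, with fold changes of -0.17 (SE 0.18) and -0.15 (SE 0.15), and neither was called. mt-Co2 and mt-Atp6 also lay below all controls as deposited, with fold changes of -0.40 (SE 0.31) and -0.27 (SE 0.24). With copies added these became 0.18 (SE 0.19) and 0.11 (SE 0.18) and the groups overlapped, so their direction depended on which identifier received the reads. Groups that did not overlap with MYC lower were found for 7.54% of all genes tested, against 4 of the 13 protein-coding genes as deposited and 2 with copies. mt-Nd1 reads per 1000 reads of mt-Co1 with its copy were 259, 355 and 275 in controls (B, L, then bi) and 212, 234 and 233 with MYC. The ratio was lower with MYC in every population. With Her2 it was 246, 282 and 242, also below the control of each population, so the fall was not particular to MYC. This ratio was not tested.

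Between the oncogene arms, nearly all protein-coding genes had higher levels with MYC than with Her2, and again none passed the threshold. Of the 26 genes, 0 were called (4.57% of all tested genes were), and 9 had an unadjusted p under 0.05, as had 4562 of all 23834 genes tested. DESeq2 called 0 of the 26 and 1887 of all genes. Limma on log2(TPM + 1) called 1 of the 26, mt-Tp, and 500 of all genes. The fold change was positive for 12 of 13 protein-coding genes, with a median of 0.40, and for 13 of 13 with copies, with a median of 0.50, against 0.02 for all genes. The summed reads had a mean log2 ratio of 0.44 (SD 0.27), with 0.56 in B, 0.64 in L and 0.13 in bi.

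mt-Nd4l, a small complex I subunit, was at 173, 146 and 161 CPM with MYC in B, L and bi and at 121, 91.2 and 109 with Her2 (0.57, SE 0.16, adjusted p = 0.0752). mt-Cytb was at 1315, 1131 and 1254 CPM with MYC and at 886, 687 and 921 with Her2 (0.57, SE 0.18, adjusted p = 0.112). mt-Nd4, a large complex I subunit, was at 718, 647 and 702 CPM with MYC and at 535, 356 and 607 with Her2 (0.48, SE 0.16, adjusted p = 0.136). In each of these 3 genes every MYC library lay above every Her2 library. That held for 7 of 13 protein-coding genes as deposited (also mt-Nd2, mt-Atp8, mt-Nd5 and mt-Nd6) and for 9 with copies, which added mt-Co2 and mt-Atp6. Over all genes tested the share in this direction was 6.42%. mt-Tp had the largest fold change of the 26, at 0.70 (SE 0.22, adjusted p = 0.107). Scaling by library totals alone brought mt-Cytb and mt-Nd4l past the threshold.

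**Figure D4:**
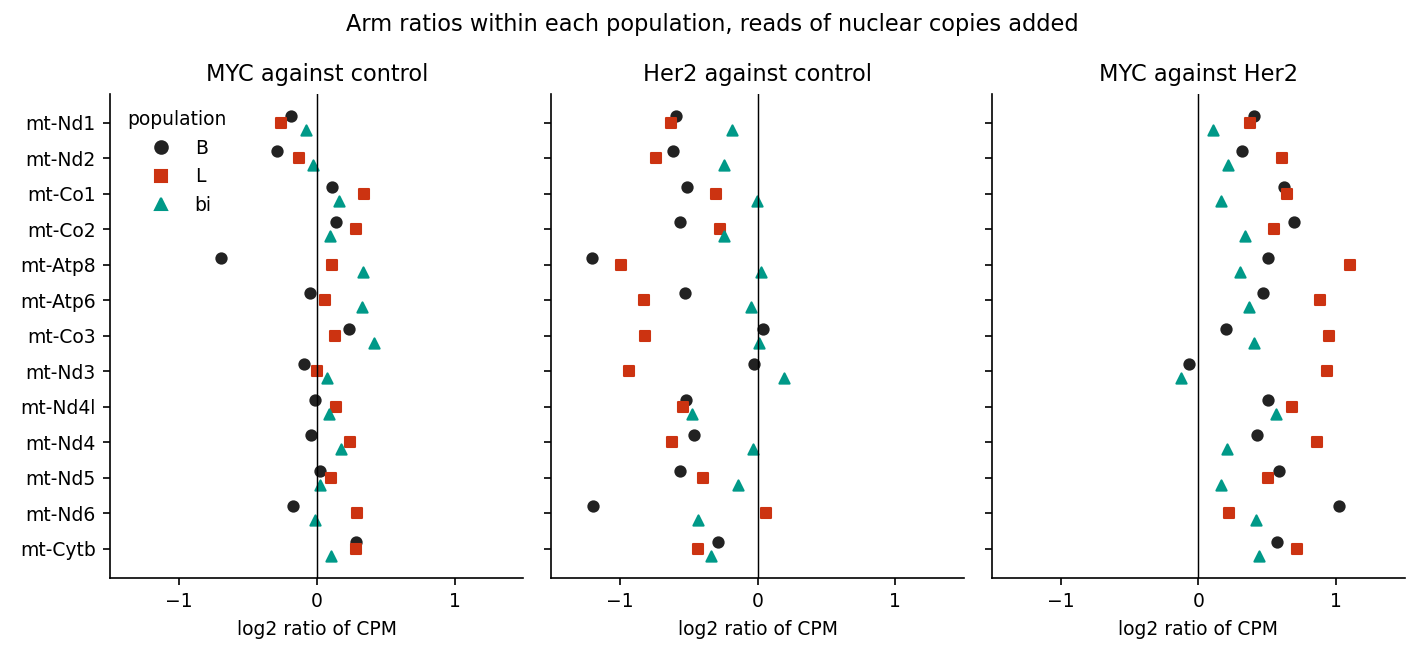
Log2 ratios of CPM between arms within each population for the 13 protein-coding genes, reads of nuclear copies added, with 1 symbol for each population. In the Her2 against control panel most B and L points lie left of 0 and bi points nearer to it, and in the MYC against Her2 panel all points lie right of 0 except B and bi for mt-Nd3.

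Population differences were averaged over the 3 arms in that fit, arm being the block. L libraries had the lower mitochondrial reads: the summed protein-coding reads of L against B had a mean log2 ratio of -0.25 (SD 0.08), with -0.33 in controls, -0.17 with MYC and -0.25 with Her2, and of -0.36 (SD 0.09) with copies. The L Her2 library was the lowest of the 9 for 10 of the 13 genes as deposited and for 12 with copies. As deposited 10 of 13 fold changes were negative (9 with library totals alone and 12 with RLE scaling), with a median of -0.23, and with copies 13 of 13, with a median of -0.41, against 0.04 for all genes. Of the 26 genes 1 was called, in a comparison that called 20.8% of all genes tested, 11.5% as higher and 9.26% as lower. It had an unadjusted p under 0.05, as had 3 others. Over all 23834 genes tested, 7626 had one, a larger share than among the 26.

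The called gene was mt-Atp8, whose short protein is part of the membrane domain of the ATP synthase. It was at 90.6, 55.9 and 39.4 CPM in B control, MYC and Her2, at 41.6, 44.8 and 20.9 in L, and at 36.8, 46.3 and 37.4 in bi. L was below B within every arm, but the groups overlapped since L MYC lay above B Her2. The fold change was -0.83 (SE 0.21, adjusted p = 0.0193 in edgeR's quasi-likelihood test). The call was lost without the B control library (-0.58, adjusted p = 0.0704), the L control library (-0.84, 0.0780) or the L Her2 library (-0.74, 0.0853), and without the block for arm (-0.85, 0.104). With limma on log2(TPM + 1) it was not called either (-0.83, adjusted p = 0.120), nor without the control arm (-0.67, 0.0757) or the MYC arm (-0.94, 0.0542), and 14 of 22 alternatives called it. It was also lost with mt-Atp8, mt-Atp6 and its copy joined as 1 feature, which was chosen after seeing the data (-0.53, adjusted p = 0.0676). mt-Atp6 with its copy averaged 891 CPM in L and 1216 CPM in B, against 35.7 and 62.0 CPM for mt-Atp8. The joined feature is thus mostly mt-Atp6 and cannot test mt-Atp8 by itself. Leaving out the L Her2 library brought mt-Nd6 past the threshold instead (-0.76, SE 0.21, adjusted p = 0.0436). In the deposited files mt-Atp8 has a length of 204 bases and a median effective length of 60 bases.

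**Figure D5:**
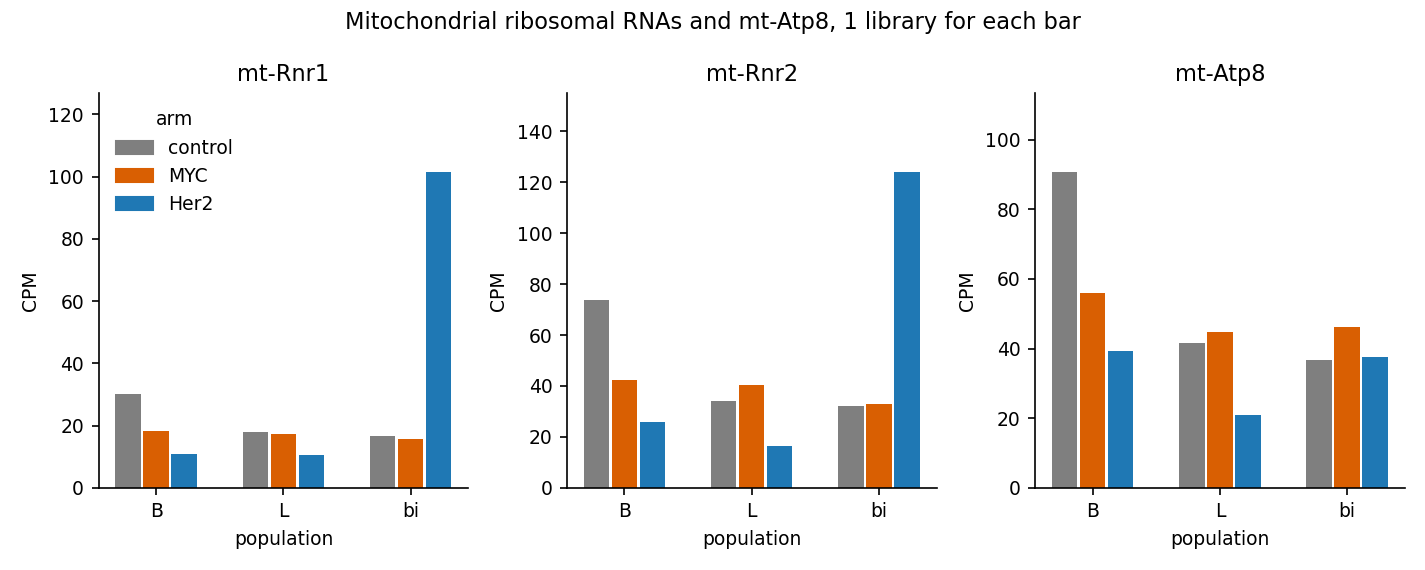
CPM of mt-Rnr1, mt-Rnr2 and mt-Atp8 by population, with 1 bar for each library coloured by arm. The bi Her2 library reaches 101 CPM for mt-Rnr1 and 124 CPM for mt-Rnr2, and mt-Atp8 is highest in B control at 90.6 CPM.

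The other L against B values show how far the nuclear copies bear on this comparison. mt-Co2 was at 0.15 as deposited (SE 0.31) and at -0.42 with its copy (SE 0.19, adjusted p = 0.152). mt-Atp6 went from 0.02 (SE 0.24) to -0.51 (SE 0.18, adjusted p = 0.0734), and mt-Co3 from -0.0028 (SE 0.24) to -0.55 (SE 0.20, adjusted p = 0.0801). With its copy, mt-Co3 was at 1378, 1622 and 1413 CPM in B and at 1194, 1310 and 678 CPM in L, without overlap, which 13.7% of all genes showed in this direction. None of the 3 was called either way. Among genes with no copy that holds reads, mt-Nd4 was at -0.42 (SE 0.16, adjusted p = 0.107), mt-Nd4l at -0.38 (SE 0.16, adjusted p = 0.128) and mt-Nd2 at -0.09 (SE 0.16). Of the transfer RNAs, mt-Tp averaged 4.64 CPM (L) and 6.77 CPM (B), with a fold change of -0.60 (SE 0.22, adjusted p = 0.0817) and limma called it, while mt-Tw was higher in every L library than in every B library (0.968 against 0.666 CPM, 0.52, SE 0.38) and was not called. Groups without overlap in that direction were seen for 17.6% of all genes.

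The bi libraries had sums close to B in the control and MYC arms and higher with Her2, and sums above L in every arm. For bi against B, 0 of 26 genes were called (13% of all tested genes were), and 1 had an unadjusted p under 0.05, as had 6253 of all 23834 genes tested. DESeq2 and limma called 0 of the 26, and 3646 and 2212 of all genes. The gene with the unadjusted p under 0.05 was again mt-Atp8, with means of 40.2 CPM (bi) and 62.0 CPM (B) and a fold change of -0.54 (SE 0.21, adjusted p = 0.132). Without the B control or the bi control library it was -0.30. The log2 ratios of the summed reads were -0.05 in controls, -0.0058 with MYC and 0.42 with Her2. Their mean was 0.12 (SD 0.26), or -0.03 without a Her2 library, and it became -0.01 (SD 0.18) with copies. mt-Atp6 went from 0.53 to -0.23 and mt-Co3 from 0.41 to -0.26 once their copies were added.

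For bi against L, 0 of 26 genes were called (0.751% of all tested genes were), and 3 had an unadjusted p under 0.05, as had 2061 of all 23834 genes tested. DESeq2 called 0 of the 26 and 663 of all genes. Limma also called 0 of the 26, but only 2 of all genes. The sums were higher in bi in every arm, with log2 ratios of 0.28 in controls, 0.16 with MYC and 0.67 with Her2. mt-Co1 was at 3749, 4196 and 3702 CPM in bi control, MYC and Her2 and at 2781, 3512 and 2275 CPM in L (0.50, SE 0.20, adjusted p = 0.467). Each bi library lay above each L library for this gene alone among the 13, where 4.05% of all genes had groups that did not overlap in this direction.

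Nuclear genes that act on the mitochondrial genome or join its products were set beside these values from fixed lists. In the 3 arm comparisons none of the 10 lists had a called gene in edgeR's quasi-likelihood test. Over all genes tested the shares called were 0.365% for MYC against control, 0.021% for Her2 against control and 4.57% for MYC against Her2. Cox7a2l, which acts in the joining of respiratory complexes, had the smallest p of the lists in both MYC comparisons. It was at 192 CPM with MYC against 106 in controls (0.86, SE 0.22, adjusted p = 0.114) and 109 with Her2 (0.87, SE 0.22, adjusted p = 0.0562). In Her2 against control the smallest p was that of Cox4i2 of complex IV, at 0.500 against 0.116 CPM (2.07, SE 0.46, adjusted p = 0.135). Falls with the smallest p of their list included Nrf1, a transcription factor for nuclear respiratory genes. It was at 34.5 CPM with MYC against 51.1 in controls (-0.57, SE 0.16, adjusted p = 0.143). The complex I subunit gene Ndufb2 was another, in Her2 against control (-0.63, SE 0.19, adjusted p = 0.301). The median over the 80 mitochondrial ribosomal protein genes was -0.17 for MYC against control and -0.13 for MYC against Her2, with medians of 0.03 and 0.02 over all genes.

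In L against B, a few genes of these lists were called, in both directions, where 20.8% of all tested genes were called. Of the 22 genes for transcription and maintenance of mitochondrial DNA, 0 rose and 4 fell (18.2% called, near the share over all genes), among them Mterf2, of the family of mitochondrial transcription termination factors (-1.24, SE 0.27, adjusted p = 0.00874), and Dguok, a mitochondrial deoxynucleoside kinase (-0.79, SE 0.21, adjusted p = 0.0261). Of 35 genes for RNA processing and decay 0 were called, below that share, and Pus1, a pseudouridine synthase, had the smallest p (-0.54, SE 0.20, adjusted p = 0.0863). Of 13 biogenesis regulators 2 rose and 1 fell (23.1% called): Esrrg, an orphan nuclear receptor (1.86, SE 0.32), its coactivator Ppargc1a (11.3 against 4.16 CPM, 1.35, SE 0.31, adjusted p = 0.0130) and Nfe2l2 (-0.77, SE 0.19). On log2(TPM + 1) Esrrg was at 0.08 and was not called.

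Of the 80 mitochondrial ribosomal protein genes 4 rose and 2 fell in L against B (7.5% called, against 20.8% of all tested genes), led by Mrpl12, at 192 CPM in L against 52.1 in B (1.85, SE 0.22, adjusted p = 0.000329), with Mrps7 at 0.83, Mrps33 at -0.79 and Mrpl32 at -0.76. Of 17 mitochondrial aminoacyl-tRNA synthetase genes 3 rose and 1 fell (23.5% called), with Mars2 at 0.95, Sars2 at 0.85 and Vars2, for valine, at -1.40 (SE 0.19, adjusted p = 0.000689). Of 37 nuclear complex I genes 0 rose and 2 fell (5.41% called), Ndufa7 at -1.58 (SE 0.25, adjusted p = 0.00165) and Ndufb2 at -0.91. Cox5b of complex IV rose by 0.69 (1 of 14 tested) and Atp5pd of the ATP synthase by 0.73 (1 of 18), while 0 of 9 complex III and 0 of 4 complex II genes were called. The shares called in complexes I and IV and the ATP synthase (5.41%, 7.14% and 5.56%) thus lay below that of all genes, and that of the synthetases near it. The list medians lay between -0.28 and 0.19. Mrpl12, Ndufa7, Vars2 and Ppargc1a were called under all 21 alternative settings, Mterf2 under 20, Mars2 under 19, Mrps7 and Ndufb2 under 18, Nfe2l2, Sars2 and Atp5pd under 15, Dguok under 12, Mrps33 and Mrpl32 under 11 and Cox5b under 9. For Cox5b, leaving out the L control library gave an adjusted p of 0.175.

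In bi against B fewer genes of these lists were called, as were fewer of all tested genes (13%). The share was 13.6% for the maintenance genes and 17.6% for the synthetases, near that of all genes, and 2.5% for the ribosomal proteins and 5.41% for complex I, below it. Mterf2 (-0.98) and Dguok (-0.82) fell with 1 other of the 22 maintenance genes, Mrpl12 (198 against 52.1 CPM, 1.93, SE 0.22, adjusted p = 0.000492) and Mrps7 (0.81) rose among 80 ribosomal protein genes, and Ndufa7 (-1.14) and Ndufb2 (-0.73) fell among 37 complex I genes. Sars2 (1.01) and Mars2 (0.90) rose and Vars2 (-0.88) fell among 17 synthetase genes, and the other 6 lists had none called. Mrpl12 was called under all 21 alternatives, while Mterf2 and Ndufb2 were called under 7 and Dguok under 8. In bi against L none of the 10 lists had a called gene, where 0.751% of all tested genes were called.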

How the data were processed

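Per the file headers, the authors deposited for each gene of each library an estimated count of reads, a TPM value, a length and an effective length. Per the submitters' processing notes these came from Salmon 0.9.1 on mm10, and the annotation release and strand setting are not given in the sources used here. Salmon divides reads that fit several transcripts by a likelihood model. Per the labels, libraries were stranded and ribosomal-RNA depleted, while the molecule label reads polyA RNA.

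The deposited estimated counts were rounded and scaled with TMM after filterByExpr, grouped by arm (at least 10 reads, 15 in total). Genes were tested with edgeR 4.0.16 (R 4.3.3), population and arm both in 1 additive fit of all 9 libraries. Levels are CPM over all deposited reads. Called genes have a Benjamini-Hochberg adjusted p under 0.05. Alternatives were other scalings, no filter, DESeq2 1.42.0, limma 3.58.1 on the authors' deposited TPM as log2(TPM + 1), copies added, no block, and libraries, arms or populations left out. Copies were found with BLAST 2.17.0 among GENCODE M21 transcripts. Ensembl identifiers gave symbols for all but 174 genes (53544 matched with their version, 563 only without it).

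The 37 genes and the lists of nuclear genes and markers were chosen with earlier results of these data known. All protein-coding and ribosomal RNA genes were named, transfer RNA genes if called or among the 5 highest, and of each nuclear list up to 2 rises and 2 falls past the threshold, or the smallest p. Of each set the examples in the text are taken from these. On simulated data for 23834 genes, the test found 36% of genes changed 2-fold and 99% of those changed 4-fold for Her2 against control, and 27% and 99% for L against B. False calls were 13 of 148 and 10 of 136. For each fold 100 genes above a minimum level were changed, and no other gene differed between populations or arms. The real data hold more differences, so these shares are not the power of the reported fits.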

Additional observations from a re-analysis of the deposited data

Results flagged for a closer look

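Some summed levels went up in 1 population or arm and down in another under the same comparison. Each value is a log2 ratio between 2 single libraries, and the differences between populations or arms were not tested.

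The summed mitochondrial ribosomal RNA gave most of them. For MYC against control the ratios, in the order B, L and bi, were -0.78, 0.15 and 0.0048. For Her2 against control they were -1.51, -0.96 and 2.21, and for MYC against Her2 0.72, 1.10 and -2.20. Between populations, bi against B was -1.09 in controls, -0.31 with MYC and 2.62 with Her2, and bi against L was -0.10, -0.24 and 3.06. The 4 ratios of at least 2.2 in size all include the bi Her2 library.

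The summed protein-coding reads with copies added were lower in bi than in B in controls (-0.15) and with MYC (-0.064) and higher with Her2 (0.19). The summed transfer RNA reads of bi against L were at 0.37 in controls, 0.25 with MYC and -0.0026 with Her2.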

How the results depend on the processing

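The number of mitochondrial genes called stayed at 0 under every alternative for MYC against control, Her2 against control, bi against B and bi against L. In Her2 against control, 0 of all genes were called by limma, with no replicate block and without the L Her2 library, so their 0 was certain. Some other fits of that comparison called few of all genes, so their 0 says little. These were 1 gene without population L, 2 without the B control library and 3 without the L control library. For MYC against Her2 it was 2 with library totals alone (mt-Cytb and mt-Nd4l) and 1 with limma on log2(TPM + 1) (mt-Tp). For L against B it was 1 in the reported fit. It was 0 with no replicate block, which is the fit without arm as a block, and 0 with mt-Atp8 joined with mt-Atp6 and its copy, and likewise when the control arm or the MYC arm was left out. Leaving out the Her2 arm gave 3 (mt-Atp8, mt-Nd6 and mt-Ts1), and leaving out 1 library at a time gave 0 to 2. Each such fit has fewer samples, and otherwise the cause was not tested. The libraries carry no replicate numbers that could pair them beyond arm and population.

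The summed protein-coding reads kept their direction except for MYC against control, -0.16 with TPM against 0.09, and in bi against B with copies (-0.01) or with 1 library left out (-0.03 to 0.20). With copies L against B was -0.36. Leaving out a library here drops its partner in the same block as well.

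Of single genes, mt-Atp6 in L against B was at -0.0048 with RLE scaling and with DESeq2, -0.019 with limma, -0.045 without the control arm and -0.51 with its copy, and at -0.13 to 0.26 with 1 library left out. mt-Co2 was at -0.42 with its copy, -0.18 without the Her2 arm and -0.27 to 0.39 with 1 library left out. mt-Co3 was at 0.039 with library totals, 0.0067 without a filter, 0.0085 in the 6 libraries alone, 0.24 without the control arm and -0.25 to 0.19 with 1 library left out. For MYC against control, copies gave 0.18 for mt-Co2 and 0.11 for mt-Atp6. None of these was called under any alternative.

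Counts of calls over all genes moved more. Her2 against control called 5 genes in the reported fit, 509 with DESeq2, 619 without a filter and 0 with no replicate block, and MYC against control called 87, 966, 944 and 4. MYC against Her2 called 1089, 1887, 2089 and 6, bi against L 179, 663, 698 and 20, bi against B 3094, 3646, 3796 and 1430, and L against B 4953, 5178, 5574 and 3369. The protein-coding genes had at least 1577 reads each in every library, and 7 transfer RNA genes had fewer than 10 reads in every library.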
